A study of Mus musculus with 7 samples.

Results

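The SLC25 genes encode the mitochondrial carriers, the family of inner membrane proteins that move metabolites, nucleotides and cofactors between the cytosol and the mitochondrial matrix. HNF4a occupancy at these genes was taken from a table of HNF4a-bound regions in mouse liver, as every region whose assigned gene name begins with Slc25a followed by digits. This gave 138 of 39704 regions (0.348%), assigned to 37 of 13644 gene names. Of these regions, 19 were annotated as promoters and 119 lay elsewhere and are called distal here: 66 in introns, 35 between genes, 14 in exons and 4 at gene ends. Distal thus means only not annotated as a promoter. Within 1 kb of a start site lay 35 regions, of which 18 were annotated as promoters, so some distal regions lie close to a start site. Occupancy was measured by chromatin immunoprecipitation with sequencing using antibody ab41898. The 3 wild-type (WT) and 3 AMPK-CA libraries came from whole livers of mice on a doxycycline-containing high-fat diet for 14 days, with 1 WT and 1 AMPK-CA library in each of the batches labelled 1, 2 and 3. AMPK-CA mice carry constitutively active AMP-activated protein kinase, which responds to falling cellular energy. The labels do not give the promoter that drives the active kinase, the strain, the sex or the age, and the WT mice had the same diet and doxycycline. In whole liver, fewer HNF4a-containing cells and less binding per cell cannot be told apart, and the table holds no expression values against which the tissue label could be checked.

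Most carriers share a fold built from repeats of a pair of membrane helices and exchange a matrix solute for a cytosolic one. In hepatocytes they supply the urea cycle with ornithine and aspartate, export citrate and dicarboxylates for lipid and glucose synthesis, import acylcarnitines for fatty acid oxidation, and carry coenzyme A, NAD, glutathione and iron into the matrix. HNF4a is a nuclear receptor that binds DNA as a homodimer and maintains hepatocyte gene expression. Its usual site is a pair of half-sites of the AGGTCA type 1 base apart, of which CAAAGTCCA is a well-known core.

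Promoter sequence was read in RefSeq windows of 300 bases, 250 before and 50 after each start site (GRCm38.p6, the build of the table). Of the 37 genes with a region, 30 had such a window. The windows were searched on both strands for CAAAGTCCA, CAAAGGTCA, CAAAGTTCA and the direct repeat of AGGTCA 1 base apart, and afterwards for their shorter parts CAAAG and AGGTCA, which overlap them. The 250 bases before the start are shown for the genes with the strongest promoter regions that have a single window (Slc25a39, Slc25a42 and Slc25a47), for Slc25a10, whose promoter is among the 5 lower regions of smallest blocked p below, and for Slc25a48, which holds a long motif. Capitals mark every match to a motif or to its short parts, on either strand.
Slc25a39 (chr11:102407518-102407767, minus strand): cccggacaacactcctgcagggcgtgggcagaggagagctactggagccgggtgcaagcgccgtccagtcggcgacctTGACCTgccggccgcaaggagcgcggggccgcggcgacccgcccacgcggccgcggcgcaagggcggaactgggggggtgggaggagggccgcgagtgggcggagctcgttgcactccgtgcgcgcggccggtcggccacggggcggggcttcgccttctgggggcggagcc
Slc25a42 (chr8:70212282-70212531, minus strand): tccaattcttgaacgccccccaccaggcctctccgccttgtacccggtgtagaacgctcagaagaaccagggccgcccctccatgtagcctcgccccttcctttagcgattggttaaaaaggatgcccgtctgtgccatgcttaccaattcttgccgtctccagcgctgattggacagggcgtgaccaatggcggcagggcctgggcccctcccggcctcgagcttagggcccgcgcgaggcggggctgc
Slc25a47 (chr12:108850879-108851128, plus strand): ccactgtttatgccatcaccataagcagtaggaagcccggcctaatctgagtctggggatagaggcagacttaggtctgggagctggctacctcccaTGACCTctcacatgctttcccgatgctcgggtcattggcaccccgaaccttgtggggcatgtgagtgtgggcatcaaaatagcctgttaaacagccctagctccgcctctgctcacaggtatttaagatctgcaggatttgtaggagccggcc
Slc25a10 (chr11:120491587-120491836, plus strand): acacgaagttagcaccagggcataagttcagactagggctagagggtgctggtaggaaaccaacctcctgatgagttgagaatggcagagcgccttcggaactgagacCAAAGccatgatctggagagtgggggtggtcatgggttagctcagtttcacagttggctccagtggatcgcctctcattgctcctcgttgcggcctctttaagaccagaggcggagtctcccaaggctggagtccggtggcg
Slc25a48 (chr13:56438105-56438354, plus strand): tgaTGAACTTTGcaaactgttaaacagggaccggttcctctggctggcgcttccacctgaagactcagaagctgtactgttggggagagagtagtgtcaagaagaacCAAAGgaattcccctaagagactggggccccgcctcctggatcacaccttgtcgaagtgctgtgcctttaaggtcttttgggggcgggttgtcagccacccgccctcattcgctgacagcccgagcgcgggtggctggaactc
Slc25a48 held CAAAGTTCA on the opposite strand at position -247, the only match to a long motif among 46 Slc25a windows of 36 genes (2.17%, against 1.35% of 32851 windows of all genes). That match lies upstream of the intron 1 region of Slc25a48 (chr13:56438388-56439688) and outside its other regions. The stretches shown for the other genes lie within their promoter regions. Slc25a39 and Slc25a47 each held AGGTCA on the opposite strand, at positions -172 and -153, and Slc25a10 held CAAAG at -142. Slc25a42 held none of these letters in its window. CAAAG occurred in 50% of Slc25a windows and in 53.9% of all windows, and AGGTCA in 8.7% and 16.3%. Positions count from the start site as 0, and the matches describe the letters in these windows only.

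HNF4a occupancy of the carrier genes was uneven. Counting the 47 Slc25a genes of RefSeq, 10 had no region under their name, among them the citrate carrier gene Slc25a1, the ATP-Mg/phosphate carrier genes Slc25a24, Slc25a25 and Slc25a41, the glutathione carrier gene Slc25a40 and the ornithine carrier gene Slc25a2. Of the 37 genes with regions, 11 had 1 region, 10 had 2, 8 had between 3 and 5, and 8 had 6 or more. Genes with 6 or more regions made up 21.6% of the carrier genes and 12.8% of all genes named in the table. Slc25a13 and Slc25a51 had 16 regions each, Slc25a33 had 9, and Slc25a30 and Slc25a42 had 8 each. The gene name is the one the table assigns: 78 regions lay in the carrier gene itself, 25 in another gene and 35 between genes. Of the 16 regions named for Slc25a51, 12 lay in the neighbouring gene Shb. Conversely, 14 regions inside carrier genes carry other names, such as 3 in Slc25a44 that are assigned to Pmf1, and were not counted as members.

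Values below are normalised reads, that is, the reads in a region divided by 1 factor per library, as deposited by the authors. They are not divided by region length unless stated. The 6 libraries held 536027 to 1622087 reads in all regions, and a carrier region held 0 to 232 reads per library with a median of 21, so the weak regions rest on few reads. Carrier regions together took 0.408 ± 0.0035% of these reads in the WT libraries and 0.401 ± 0.018% in the AMPK-CA libraries (mean ± SD, n = 3 each). Fold changes are differences of mean log2(value + 1.80), AMPK-CA minus WT, which understate changes of weak regions. They were tested with limma over all 39704 regions with Benjamini-Hochberg adjustment, without and with the labelled batch as a block. WT replicate 1, in batch 1, stood apart in its promoter reads: 19.4% of its reads lay in promoter regions, against 11.7% to 14.2% in the other 5 libraries.

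No carrier region passed an adjusted p of 0.05 in the limma test (0 of 138, background 0% of all regions), and the smallest adjusted p was 1.00. With the batch block the count was again 0 of 138 (background 0.0579%), and the smallest adjusted p was 0.542. An unadjusted p under 0.05 was found for 4 carrier regions (background 2.46%), 2 higher and 2 lower in AMPK-CA (background 1.46% higher and 0.995% lower). With the block these were 8 regions (background 7.27%), 5 higher and 3 lower (background 4.11% higher and 3.16% lower). Count tests on the whole reads gave 0 adjusted calls as well, against a background of 0% for edgeR and DESeq2 and 0.0604% for edgeR with the block. Unadjusted, edgeR gave 2 carrier regions (background 2.09%), edgeR with the block 7 (background 6.54%) and DESeq2 1 (background 1.51%). Over all carrier regions, 64 were higher and 74 lower in AMPK-CA, with a median log2 fold change of -0.07, against 0.01 over all regions and a background of 50.6% higher and 49.4% lower. The groups did not overlap at 6 carrier regions that were higher (background 4.64%) and 11 that were lower (background 3.27%). All within-batch differences were positive at 16 carrier regions (background 13.5%) and negative at 24 (background 14.6%).

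**Figure D1:**
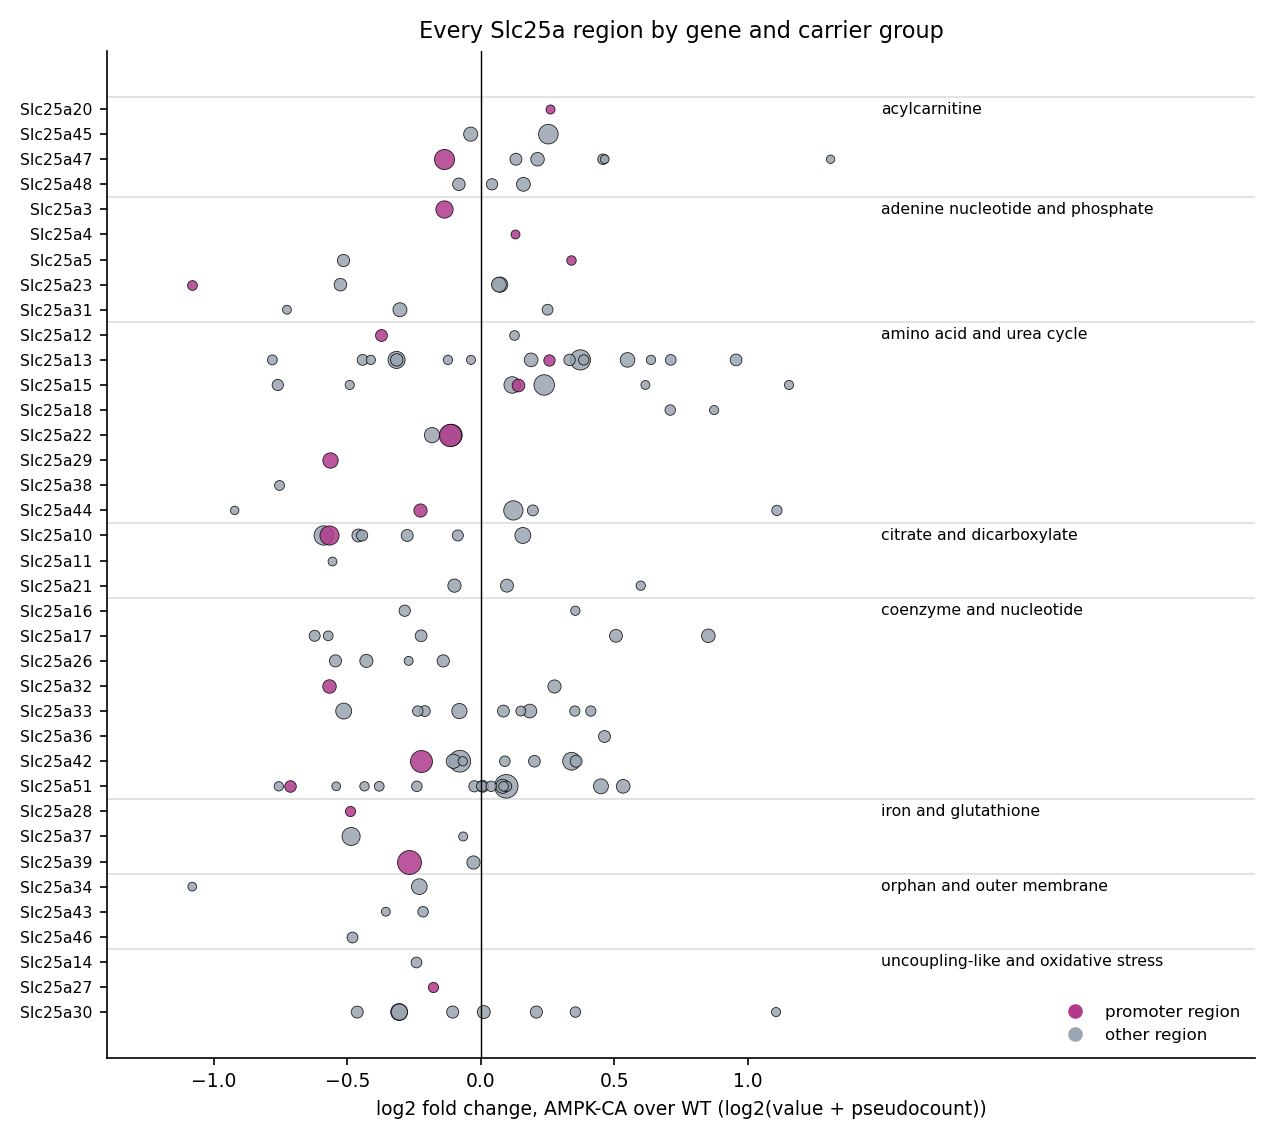
Log2 fold change (AMPK-CA over WT) of each of the 138 carrier regions, with genes in rows ordered by carrier group, promoter regions in magenta, other regions in grey, and larger points for higher mean values. Regions of 1 gene lie on both sides of 0 in most genes with several regions, while all 5 regions of the orphan group lie below 0, as do those of the iron and glutathione group, of which 1 lies above 0 when libraries are scaled to total reads and 2 without batch 1.

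The strongest carrier regions were those of the glutathione, NAD, glutamate and coenzyme A carrier genes. Slc25a39, which encodes a glutathione carrier, had its strongest region over its promoter (chr11:102406615-102408321, mm10, as are all coordinates here), rank 346 of 39704. This region had 153, 123 and 124 normalised reads in WT batches 1, 2 and 3, and 119, 111 and 100 in AMPK-CA. Each AMPK-CA library lay below all WT libraries, by a log2 fold change of -0.27 ± 0.24 (SE), with an unadjusted limma p of 0.267. Without WT replicate 1 the log2 fold change was -0.17. The strongest region of Slc25a51, the NAD carrier gene, lay at -44.6 kb from the start site, in intron 3 of 5 of Shb (chr4:45452666-45454013). It had 123, 118 and 101 in WT and 131, 117 and 117 in AMPK-CA, which overlap. Slc25a22, a glutamate carrier gene, had a promoter region (chr7:141434451-141436466) with 127, 95.8 and 102 in WT and 90.1, 137 and 79.2 in AMPK-CA. The AMPK-CA libraries lay on both sides of the WT libraries. It lay 2.42 kb from the start site used for its distance, and a further region in intron 1 averaged 104 in WT and 93.8 in AMPK-CA. Slc25a42, the coenzyme A carrier gene, had a promoter region (chr8:70211069-70213461) with 133, 100 and 93.5 in WT and 86.1, 107 and 84.7 in AMPK-CA, again overlapping. A region in its intron 2, 18.5 kb from the start, was nearly as strong, with means of 103 and 94.9. With these regions, 6 carrier regions were among the 1000 strongest of the table.

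**Figure D2:**
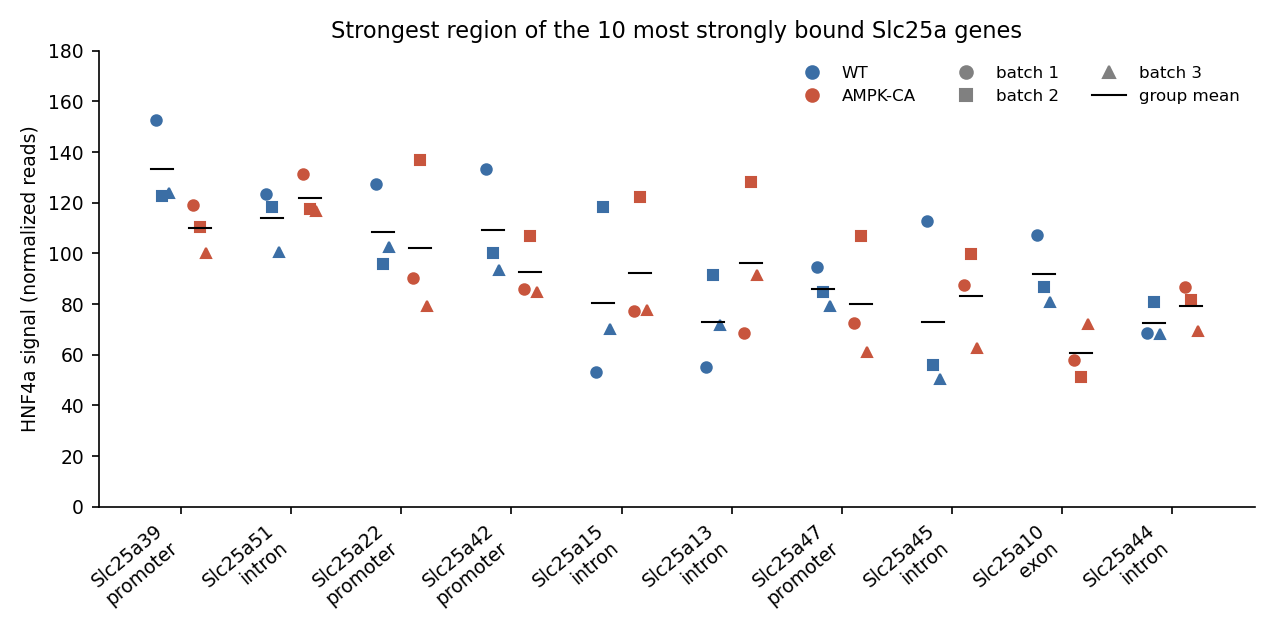
Normalised reads in each library for the strongest region of the 10 carrier genes with the highest means, WT in blue, AMPK-CA in red, marker shape for batch and bars for group means. Only at Slc25a39 and Slc25a10 does every AMPK-CA library lie below every WT library.

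Region length changed this order. Per kb of region, the leading values over all 6 libraries were 102 normalised reads per kb for the region at the end of Mrpl12 assigned to Slc25a10, 100.2 for the intron 2 region of Slc25a15, 96.2 for the intron 1 region of Slc25a22 and 87.5 for the Shb region of Slc25a51. The promoter region of Slc25a39 had 71.2 per kb and that of Slc25a42 had 42.1 per kb. At the other end, the strongest regions of several genes lay below the median over all regions, 33.3 per kb. The median over the strongest regions of all genes was 37.7 per kb. Genes with such low values included Slc25a5 (31.6 per kb), Slc25a32 (24.9), Slc25a12 (23.4) and Slc25a14 (22.7), and 3 genes picked here for widely used carriers. Slc25a11, the oxoglutarate carrier gene of the malate-aspartate shuttle, had 31.5 per kb, Slc25a20, the carnitine-acylcarnitine carrier gene, had 25.4 per kb, and Slc25a4, an ADP/ATP carrier gene, had 15.9 per kb.

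Among the citrate and dicarboxylate carriers, 3 regions were higher and 8 lower in AMPK-CA, with a median log2 fold change of -0.28, and none passed the adjusted test. The within-batch medians were -0.09, -0.35 and -0.28 in batches 1, 2 and 3. Slc25a10, which exchanges malate and succinate for phosphate, supplied most of them. Its strongest region lay over its last exon (exon 11 of 11, chr11:120500340-120501256) and had 107, 86.9 and 80.9 in WT and 57.9, 51.4 and 72.2 in AMPK-CA. The groups did not overlap: the log2 fold change was -0.59 ± 0.28, with an unadjusted limma p of 0.0458, and 0.0182 with the block (adjusted p 0.583). The Slc25a10 promoter (chr11:120491157-120492376), whose sequence is shown above, had 133, 61.4 and 79.1 in WT and 66.8, 56.3 and 51.4 in AMPK-CA. WT replicate 1 was far above the other libraries there. Within-batch log2 differences were -0.98, -0.12 and -0.60, and without batch 1 the log2 fold change was -0.36 in place of -0.57. Of the 7 regions assigned to Slc25a10, 6 were lower in AMPK-CA. Only 3 of the 7 lay in Slc25a10 itself and 3 lay between genes. The remaining region, at the end of Mrpl12, was the higher one. Summed over the 7 regions, Slc25a10 had 392, 280 and 309 normalised reads in WT and 254, 252 and 239 in AMPK-CA. The summed groups did not overlap, as for 4 of the 37 carrier genes, all lower (Slc25a10, Slc25a32, Slc25a37 and Slc25a39), and none higher (background 4.17% of genes lower and 3.31% higher). Slc25a11 had 6, 12 and 10.8 in WT and 10.5, 2.91 and 5.56 in AMPK-CA in its single, weak region in intron 1. The strongest region of the oxodicarboxylate carrier gene Slc25a21 lay over its exon 1, with means of 32.4 and 27.9.

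**Figure D3:**
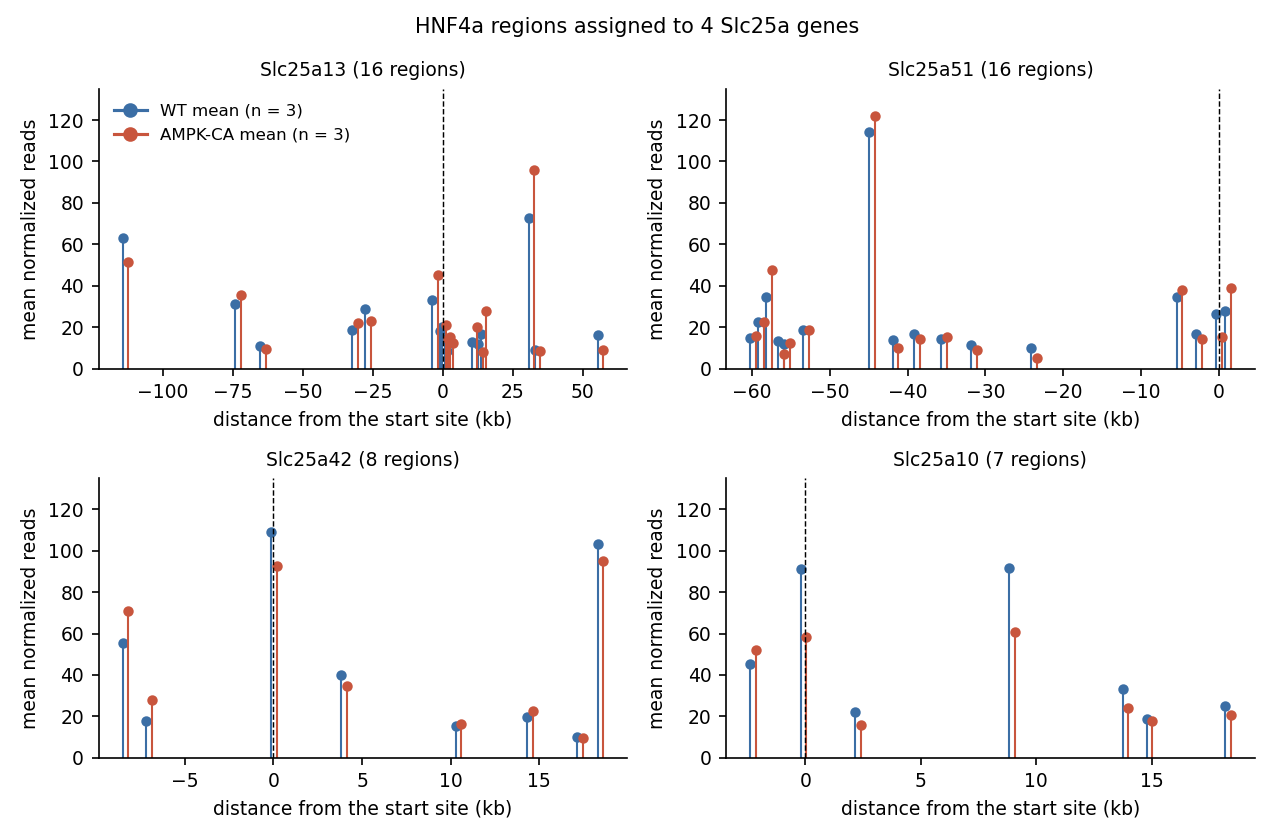
Mean normalised reads of each region of Slc25a13, Slc25a51, Slc25a42 and Slc25a10 against distance from the start site in kb, WT in blue and AMPK-CA in red, drawn side by side. At Slc25a10, 6 of 7 assigned regions are lower in AMPK-CA, while at the other 3 genes regions lie on both sides. Of the 7, 3 lie in Slc25a10 itself.

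The amino acid and urea cycle carriers held 37 regions in 8 genes, 20 higher and 17 lower in AMPK-CA, with a median log2 fold change of 0.12 and 0 adjusted calls. The within-batch medians were near 0, at 0.005, 0.05 and 0.006, and without batch 1 the median was 0.02. Slc25a13 encodes citrin, the aspartate-glutamate carrier of liver, whose loss in humans causes citrullinemia. Its regions ran from -113.4 to 56.3 kb from the start, and 9 of the 16 lay in its own introns. Its strongest region, in intron 2 (chr6:6184906-6186168), had 55.4, 91.4 and 71.9 in WT and 68.4, 128 and 91.7 in AMPK-CA. AMPK-CA was higher within each batch, by 0.30, 0.48 and 0.34 on the log2 scale, yet the range over batches within a genotype exceeded the difference of the means, and the blocked limma p was 0.122. A region in intron 1 (chr6:6202425-6202859) had 6.67, 37.4 and 5.39 in WT and 11.3, 45.6 and 26.4 in AMPK-CA. The batch 2 libraries were highest in both genotypes. Its blocked limma p was 0.0181 (adjusted p 0.583), and without the block its p was 0.113. With edgeR and the block the p was 0.0564, and without batch 3 the log2 fold change was 0.45 in place of 0.96, with a blocked limma p of 0.358. Leaving out WT replicate 1, WT replicate 3 or AMPK-CA replicate 2 gave 0.63, 0.51 and 0.52. The promoter of Slc25a13 was weaker, with a WT mean of 18.1 ± 7.54 and an AMPK-CA mean of 21.2 ± 3.98 (SD, n = 3 each).

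Slc25a15 encodes the ornithine carrier, which returns ornithine to the matrix for the urea cycle. Its strongest region, in intron 2 (chr8:22390575-22391437), had 53.4, 118 and 70.1 in WT and 77.3, 122 and 77.8 in AMPK-CA, with batch 2 high in both genotypes. A weak region in intron 1 (chr8:22397082-22397718) had 6, 5.24 and 3.59 in WT and 10.5, 21.3 and 9.72 in AMPK-CA. These groups did not overlap, but the WT values stand for 9, 7 and 2 reads. The log2 fold change was 1.15 ± 0.64, with a blocked limma p of 0.0366 (adjusted p 0.665). Slc25a44, which encodes a carrier of branched-chain amino acids, had its strongest region in intron 1, with means of 72.6 ± 7.14 in WT and 79.3 ± 8.94 in AMPK-CA. An intergenic region at -2.89 kb (chr3:88427783-88428282) had 16.7, 5.24 and 5.39 in WT and 23.3, 18.4 and 16.7 in AMPK-CA. AMPK-CA was higher in each batch there, with a log2 fold change of 1.11 ± 0.51, a limma p of 0.0392 and a blocked p of 0.0124 (adjusted p 0.546). Slc25a29, which carries basic amino acids, and the glycine carrier gene Slc25a38 had 1 region each, with log2 fold changes of -0.57 and -0.76. The 2 regions of the glutamate carrier gene Slc25a18 lay in Cecr2, with log2 fold changes of 0.71 and 0.87. For Slc25a12, the aspartate-glutamate carrier gene of excitable tissues, the promoter had means of 26.7 ± 16.7 and 18.6 ± 5.31.

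The carnitine-acylcarnitine carrier gene Slc25a20 and its relatives Slc25a45, Slc25a47 and Slc25a48 held 12 regions, 9 higher and 3 lower, with a median log2 fold change of 0.19 and 0 adjusted calls. The within-batch medians were -0.09, 0.73 and -0.07, so the median was positive in batch 2 and slightly negative in batches 1 and 3. Slc25a20, the entry step of long-chain fatty acids into the matrix, had a single weak promoter region with 8, 14.2 and 3.59 in WT and 9.66, 10.7 and 8.33 in AMPK-CA. Slc25a47 is expressed chiefly in liver, and its promoter (chr12:108850137-108851398) was the strongest of its 6 regions. It had 94.7, 84.6 and 79.1 in WT and 72.4, 107 and 61.1 in AMPK-CA, so the AMPK-CA libraries lay both above and below the WT libraries. The other 5 regions of Slc25a47 all had positive log2 fold changes, from 0.13 to 1.31. The largest belonged to a weak intergenic region with means of 2.99 in WT and 9.37 in AMPK-CA. The strongest region of Slc25a45, in intron 4, had 113, 56.2 and 50.3 in WT and 87.7, 99.9 and 62.5 in AMPK-CA, with batch 1 and batches 2 and 3 in opposite directions. Slc25a48, whose human counterpart carries choline, had 3 regions with log2 fold changes between -0.08 and 0.16, the strongest in intron 1.

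The coenzyme and nucleotide carriers held 47 regions, 23 higher and 24 lower, with a median log2 fold change of -0.02 (0.03 when scaled to total reads) and 0 adjusted calls, and within-batch medians of 0.09, -0.08 and -0.14. The promoter of Slc25a51 (chr4:45408404-45409029) had 30.7, 25.5 and 23.4 in WT and 12.9, 15.5 and 18.1 in AMPK-CA. The groups did not overlap and the log2 fold change was -0.71 ± 0.41, with a blocked limma p of 0.0628 (adjusted p 0.709), whereas the far stronger Shb region had 0.10 ± 0.24. Summed over all 16 regions, Slc25a51 had 401 ± 23.6 in WT and 406 ± 15.3 in AMPK-CA. Slc25a17, the peroxisomal carrier of coenzyme A and related nucleotides, had its strongest region at -4.86 kb, in the last intron of St13 (chr15:81365133-81366107). It had 12, 35.9 and 23.4 in WT and 33.8, 53.4 and 37.5 in AMPK-CA. AMPK-CA was higher within each batch, with a log2 fold change of 0.85 ± 0.41, a limma p of 0.0468 and the smallest blocked p among carrier regions, 0.011 (adjusted p 0.542). Without WT replicate 1, its lowest library, the log2 fold change was 0.47 and the limma p 0.164. The region in intron 1 of Slc25a17 itself went the other way, with means of 22.6 and 13.5. For the pyrimidine nucleotide carrier gene Slc25a33, an intergenic region at -19.6 kb (chr4:149793245-149794425) had 57.4, 58.4 and 55.7 in WT and 36.2, 34.9 and 48.6 in AMPK-CA. These groups did not overlap, and the blocked limma p was 0.0728. The other 8 regions of Slc25a33 had log2 fold changes between -0.24 and 0.41. Slc25a16, a carrier gene linked to coenzyme A, had 2 regions at -0.29 and 0.35, and the pyrimidine nucleotide carrier gene Slc25a36 had 1 at 0.46. The folate carrier gene Slc25a32 had 2 regions, 1 annotated as a promoter of another gene at -0.57 and 1 in its intron 1 at 0.27. The 4 regions of Slc25a26, the S-adenosylmethionine carrier gene, were lower in AMPK-CA, with log2 fold changes from -0.54 to -0.14. Their sums were 46.0, 144 and 113 in WT and 82.1, 58.2 and 77.8 in AMPK-CA, so batch 1 went the other way and the groups overlapped.

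The iron and glutathione carriers held 5 regions, all lower in AMPK-CA (4 of 5 when libraries were scaled to total reads, and 3 of 5 without batch 1), with a median log2 fold change of -0.27 and 0 adjusted calls. The within-batch medians were -0.42, -0.07 and -0.31. Slc25a37 encodes mitoferrin 1, which imports iron for heme and iron-sulphur clusters, and its main region lay at the gene end (chr14:69241150-69241910), 43.6 kb from the start. It had 74.7, 72.6 and 80.9 in WT and 49.1, 68.9 and 45.8 in AMPK-CA. All AMPK-CA libraries lay below all WT libraries, though the batch 2 pair differed by only -0.07 on the log2 scale, and the blocked limma p was 0.0626. The single region assigned to Slc25a28, the gene of mitoferrin 2, was weak, with means of 16.6 ± 9.29 and 11.3 ± 7.65. It is annotated as a promoter of another gene. The region annotated as the Slc25a28 promoter is assigned to BC037704, is not counted here, and had a log2 fold change of 0.30. The 5 regions of Slc25a34, Slc25a43 and Slc25a46 were also lower, with a median of -0.36 and within-batch medians of -0.34, -0.52 and -0.53. Slc25a46 acts in outer membrane dynamics, and the substrates of the other 2 are not named here.

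Among the adenine nucleotide and phosphate carriers, 5 regions were higher and 6 lower, with within-batch medians of -0.36, 0.05 and -0.33. The promoter of the phosphate carrier gene Slc25a3 had 88.7, 62.9 and 37.7 in WT and 55.5, 47.5 and 59.7 in AMPK-CA, a wide WT spread that contained the AMPK-CA libraries. The promoter of Slc25a23, an ATP-Mg/phosphate carrier gene (chr17:57060178-57060734), had 26, 13.5 and 12.6 in WT and 9.66, 5.82 and 5.56 in AMPK-CA. The groups did not overlap, and the log2 fold change of -1.08 ± 0.52 was the most negative of the 138 regions, with a limma p of 0.0485 and a blocked p of 0.0215 (adjusted p 0.605). The AMPK-CA values stand for 12, 6 and 4 reads. The stronger regions of Slc25a23 in introns 1 and 3 both had log2 fold changes of 0.07. Its region over exon 1, with a mean of 26.4, was also stronger than the promoter region and was lower in AMPK-CA. The promoters of the ADP/ATP carrier genes Slc25a4 and Slc25a5 were weak, with means of 8.19 and 9.59 in WT and 8.86 and 11.7 in AMPK-CA. Slc25a31, an ADP/ATP carrier gene of testis, had 3 regions with log2 fold changes from -0.73 to 0.25. Among the uncoupling-like carriers, 4 regions were higher and 6 lower (within-batch medians -0.38, -0.07 and 0.14), and Slc25a30 held 8 of the 10, while Slc25a14 and Slc25a27 had 1 each, at -0.24 and -0.18. Its strongest lay at -21.0 kb with means of 62.3 and 50.3, and a weak region in intron 2 had 8, 4.49 and 3.59 in WT and 12.9, 12.6 and 13.9 in AMPK-CA. The latter groups did not overlap, with a blocked limma p of 0.0418 (adjusted p 0.675), and edgeR with the block gave 0.0592.

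**Figure D4:**
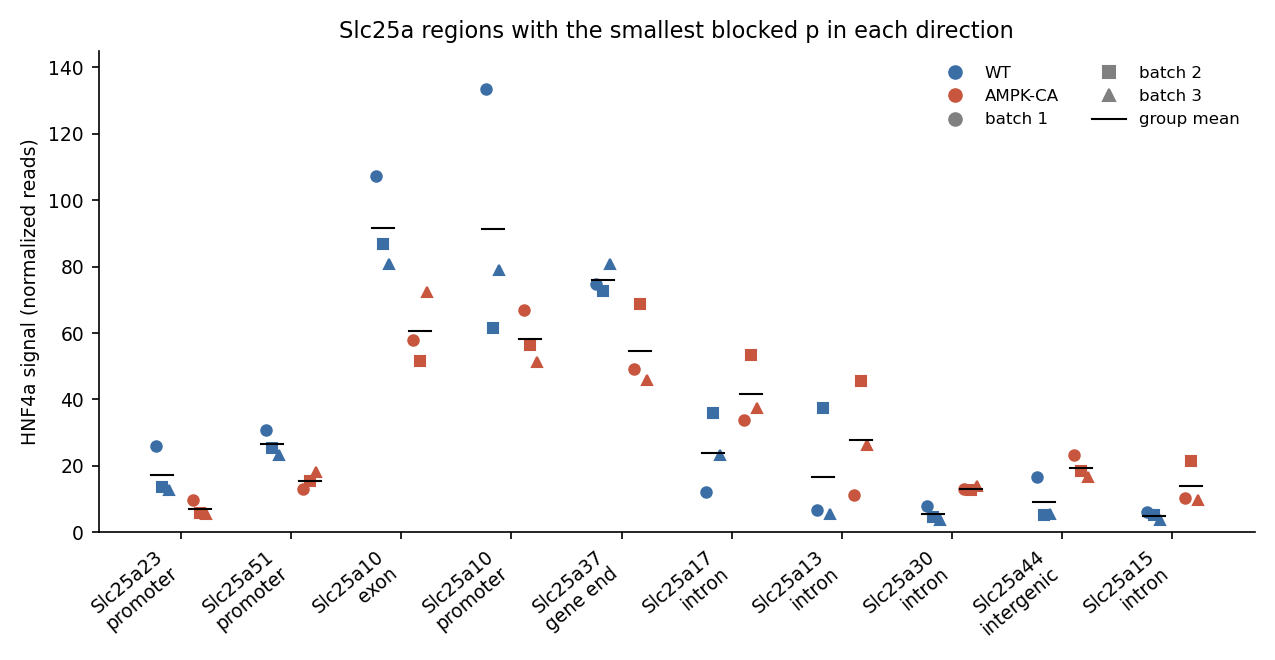
Normalised reads in each library for the 5 carrier regions lower and the 5 higher in AMPK-CA that had the smallest blocked limma p among those with all within-batch differences of 1 sign, WT in blue, AMPK-CA in red, marker shape for batch and bars for group means. Of the 5 lower regions, 3 are promoters, and none of the 5 higher regions is. Over all regions of the table, 1327 of the 5815 with all within-batch differences negative were promoters. Of the 5367 with all positive, 185 were, so this contrast is not particular to carrier regions.

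Promoter and distal regions of the carrier genes differed in their medians. The promoter regions named for Slc25a15, Slc25a27, Slc25a28 and Slc25a32 are annotated as promoters of other genes, and are counted here as carrier promoters. Of the 19 promoter regions, 5 were higher and 14 lower in AMPK-CA, with a median log2 fold change of -0.22, while 59 of the 119 distal regions were higher and 60 lower, with a median of -0.02 (0.03 when scaled to total reads). The same medians over all 5235 promoter and 34469 distal regions of the table were -0.23 and 0.05. Within batches 1, 2 and 3, the promoter medians were -0.53, 0.09 and -0.31 for the carrier genes and -0.60, -0.06 and -0.09 for all promoters. The distal medians were 0.05, -0.07 and -0.16 for the carrier genes. Batch 1, which holds WT replicate 1, thus gave the largest promoter difference, and without it the carrier promoter median was -0.02. Of the 13 carrier genes with both kinds of region, the promoter had a lower fold change than the median distal region in 10 (76.9%), against 72.1% of 3320 genes of the table. The difference between the median log2 values of promoter and distal carrier regions was 0.68, 0.21 and 0.42 in WT batches 1, 2 and 3, and 0.11, 0.17 and 0 in AMPK-CA. Over all regions of the table the same difference was 0.76, -0.18 and 0 in WT and 0.18, -0.24 and -0.10 in AMPK-CA, so it too was lower in AMPK-CA within each batch. For the carriers all AMPK-CA values lay below all WT values, and an exact two-sided permutation test gave p = 0.1, the smallest that 3 against 3 libraries allow. Within batches the carrier differences were -0.57, -0.04 and -0.42, and the exact paired test gave p = 0.25, the smallest that 3 pairs allow. The share of carrier reads that lay in promoters was 25.6%, 18.4% and 19.7% in WT and 19.0%, 19.3% and 17.3% in AMPK-CA, which overlap (exact two-sided permutation p = 0.4). The exact paired test of this share gave p = 0.5. Adjusted over the 2 unpaired tests, p was 0.2 and 0.4, and all tests of these measures were chosen after the values were seen.

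**Figure D5:**
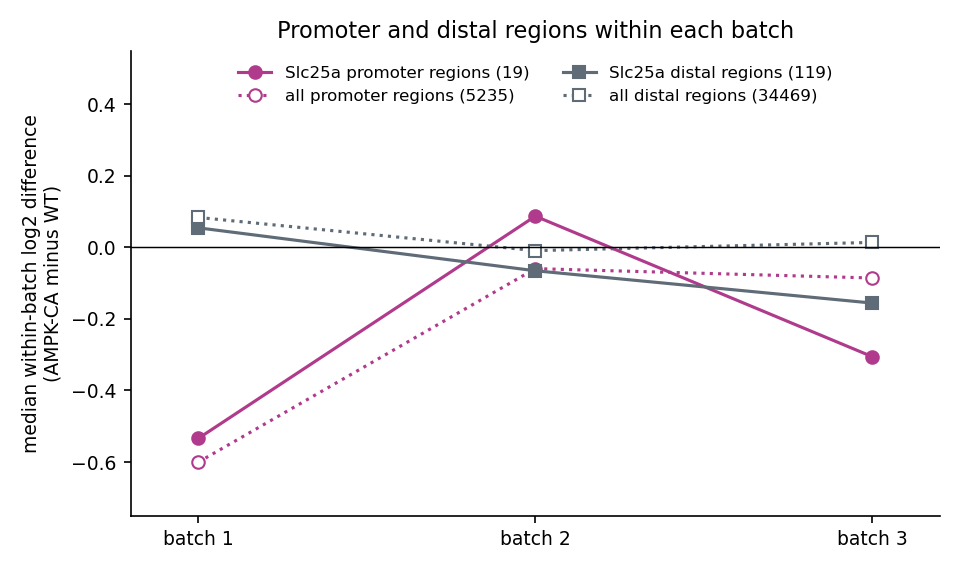
Median within-batch log2 difference (AMPK-CA minus WT) of promoter and distal regions in batches 1, 2 and 3, for carrier genes (filled points, solid lines) and for all regions (open points, dotted lines). Carrier and all promoters both lie lowest in batch 1, at -0.53 and -0.60, and the carrier promoters lie above 0 in batch 2.

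Taking each gene's strongest region, 12 of the 37 carrier genes were higher and 25 lower in AMPK-CA, with a median log2 fold change of -0.22. Over the strongest regions of all 13644 genes, 6095 were higher and 7549 lower, with a median of -0.05. The within-batch medians were -0.38, 0.01 and -0.22 for the carrier genes and -0.23, -0.02 and -0.01 for all genes. Without WT replicate 1 the carrier median was 0.001. Promoters made up 12 of the 37 strongest regions (32.4%) and 21.7% of those of all genes. No strongest region of a carrier gene passed the adjusted limma test, with or without the block. Of the strongest regions of all 13644 genes, 0 passed without the block and 8 with it.

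Genes that work with the carriers were described in the same way, each by its strongest region. Of the 39 listed genes with a region, 20 were higher and 19 lower in AMPK-CA, and 0 passed the adjusted limma test. The 4 SLC25 family genes with other names that had regions (Mtch1, Mtch2, Ucp2 and Ucp3) were all higher, and 3 of them without batch 1. Mtch1 had a log2 fold change of only 0.03 and was lower in batch 3 (-0.21). Ucp3, whose region lay in C2cd3, had 0.12 and was lower in batch 1 (-0.49). Mtch2, which inserts proteins into the outer mitochondrial membrane, had 10.01, 10.5 and 21.6 in WT and 24.1, 43.7 and 29.2 in AMPK-CA in an intergenic region at -1.28 kb. Its groups did not overlap, and the log2 fold change of 1.14 had a limma p of 0.0149 (blocked adjusted p 0.415). Of the genes for carrier import and assembly, 3 were higher and 6 lower, and of the shuttle enzyme genes 5 were higher and 5 lower. Of other inner membrane transporter genes 6 were higher and 5 lower, and of outer membrane channel genes 2 were higher and 3 lower. Got2, the mitochondrial aspartate aminotransferase of the malate-aspartate shuttle, had the strongest region of these lists, with 330, 151 and 101 in WT and 243, 192 and 172 in AMPK-CA. Cs, the citrate synthase gene, had 12.0, 29.95 and 25.2 in WT and 24.1, 55.3 and 45.8 in AMPK-CA, higher within each batch, with a blocked limma p of 0.0114 (adjusted p 0.542). Letm1, listed with the inner membrane transporters, was lower within each batch, by -1.81, -0.69 and -0.45. Its log2 fold change was -0.98, with a blocked limma p of 0.0175 (adjusted p 0.581). At a blocked limma p under 0.05, 2 listed genes were higher and 1 lower, against 559 and 610 of the 13644 strongest regions of all genes.

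The authors' deposited table also gives a p-value per region, which equals a test of the 3 within-experiment ratios against 3 values of 1 and is not adjusted. In the authors' deposited table, 18 carrier regions had such a p under 0.05 with a mean ratio below 1 (background 8.71%) and 3 with a mean ratio above 1 (background 3.74%). In the authors' deposited table, 2 of the 19 carrier promoters had a score below -0.75, as had 15.1% of all promoters.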

How the data were processed

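HNF4a ChIP-seq was analysed in 6 mouse liver libraries, 3 per genotype, and the pooled input was not analysed here. Per the submitters' processing notes, the tools BWA, MACS2, SICER, HOMER, deepTools, Picard, SAMtools, Trim Galore and FastQC are named with builds GRCm38 and mm10, and no roles or versions are stated. The sources used here do not state the selection of regions. The signal that the authors deposited is a read number per region divided by 1 factor. In all libraries 100% of values were whole multiples of the smallest value within 1e-09, so reads were recovered, and the authors' factors matched TMM scaling. A change common to most regions is removed by such scaling. The authors deposited AMPK-CA over WT ratios per experiment (the columns headed 2 and 3 hold experiments 3 and 2), the log2 of their mean ratio, a p-value and a score.

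Tests used limma 3.58.1 (mean-variance trend, robust empirical Bayes) in R 4.3.3 on log2(value + 1.80), where 1.80 is 0.1 of the median value above 0. Genotype was the only term, and no filter was applied. edgeR 4.0.16 and DESeq2 1.42.0 on recovered reads were alternatives, and all fits were tested on simulated data. The batch label pairs the libraries, and same-batch deviations correlated with r of 0.527, 0.49 and 0.046, so blocked values are given. The labels give each library its own animal code. The labels do not otherwise describe the replicates, so p-values measure the spread between these libraries. Members, carrier groups and gene lists were chosen with earlier results of these data known. Regions were named as the strongest of the 10 most strongly bound genes, the 5 of smallest blocked p in each direction with all within-batch differences of 1 sign, the strongest of the 3 genes with most regions, and 12 fixed carrier genes. Other regions are named to describe their carrier group and were chosen after their values were seen. Sequences are from RefSeq.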

Additional observations from a re-analysis of the deposited data

How the results depend on the processing

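No carrier region was called under any alternative: with the replicate block, edgeR (with and without block), DESeq2, no mean-variance trend, without each library in turn, and without each batch, the count stayed at 0, also for the strongest regions. The median of the strongest regions, -0.22, ranged from -0.324 (without WT replicate 2) to 0.0013 (without WT replicate 1) when 1 library was left out, and was -0.025 without batch 1 and -0.33 without batch 2. The ranges over left-out libraries and batches were -0.08 to 0.003 over all carrier regions, -0.38 to -0.02 for promoters and -0.03 to 0.02 for distal regions. The replicate block left these medians as they were, for example -0.07 over the carrier regions. Scaling to total reads moved the median of all regions of the table to 0.06 and that of the carrier regions to -0.02 (68 higher, 70 lower). With distal defined as beyond 1 kb from the start, the distal median was 0.07 in place of -0.02, against 0.09 over all regions beyond 1 kb. Within 1 kb, 6 carrier regions were higher and 29 lower, with a median of -0.27 in place of -0.22 (-0.09 without batch 1). Over all regions within 1 kb, 2288 were higher and 6936 lower, with a median of -0.24. Of 324 alternative values at the 22 named regions, 310 stayed within the spread, 14 moved beyond it, and 9 changed sign, in Slc25a15, Slc25a20, Slc25a22, Slc25a45 and Slc25a47. The spread differed between regions, and a value within it could still change sign. At Slc25a20, for example, the log2 fold change went from 0.26 to -0.15 without WT replicate 3. The reads per region limit what can be seen at weak regions, since the median carrier region held 21 reads per library.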

Other observations

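Slc25a29 and Slc25a47 are neighbours on chromosome 12, and at both promoters only batch 2 was higher in AMPK-CA: within-batch log2 differences were -0.53, 0.28 and -1.45 at Slc25a29 and -0.38, 0.33 and -0.36 at Slc25a47. This order was not particular to the locus. The promoters of Slc25a22 and Slc25a42, on other chromosomes, had it too, as had the medians of all 19 carrier promoters (-0.53, 0.09 and -0.31). Inside carrier genes, regions assigned to other genes showed no adjusted call either. The strongest of these, in Slc25a44 and assigned to Pmf1, had a mean of 65.3 normalised reads and a log2 fold change of 0.07. The promoter region of Slc25a28 that the table assigns to BC037704 had a mean of 22.6 and a log2 fold change of 0.30. The region assigned to Slc25a28, which is annotated as a promoter of another gene, had -0.49. Neither passed the adjusted limma test.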
